A study of Mus musculus with 15 samples.

Results

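Counts of 5 genes of the fetal liver were examined in livers of young and old mice with and without ribosomal S6 kinase 1 (S6K1). Counts of 2 genes for repressors known to silence some of them after birth were read beside these. The fetal genes were Afp, H19, Igf2, Gpc3 and Cd24a, the repressors were Zbtb20 and Zhx2, and these 7 genes were chosen by name among the 37991 identifiers of the count table. RNA sequencing of whole liver covered 15 libraries of 1 female mouse each, with 5 young WT mice (90 days old, wild type for S6K1), 5 old WT mice (600 days old, wild type) and 5 old KO mice (600 days old, carrying a deletion of the S6K1 gene Rps6kb1 in every tissue). The mice were on a C57BL/6 background and came from heterozygous breeding, as the study's methods state. No young KO group was part of the data, so genotype was compared at 600 days alone, and the comparison of old KO with young WT mixes age and genotype.

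The fetal liver makes blood and grows fast, and its hepatocytes express a set of genes that are shut off within weeks of birth. Alpha-fetoprotein, encoded by Afp, is the main plasma protein of the fetus and gives way to albumin from a neighbouring gene. Zbtb20 is a zinc finger protein that binds the Afp promoter and represses it in the adult liver, and Zhx2, a protein with zinc fingers and homeoboxes, is known as a postnatal repressor of Afp, H19 and Gpc3. Several fetal genes are expressed again in regenerating liver, in progenitor cells of the bile ducts and in liver tumors, where alpha-fetoprotein and glypican 3 serve as clinical markers.

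Depth ranged from 21801754 (young WT 6) to 38065359 (young WT 1) counted reads per library. A gene with 0 reads in a library could therefore still have been present at up to 0.0788 to 0.138 per 1000000 counted reads, the level of 3 reads. Such limits cover counting error only and use unscaled library totals. CPM in the text are counts per 1000000 of the library after the TMM scaling described below. A value of 3 reads can thus differ slightly from its limit, as for Gpc3 in old KO 6 (0.139 CPM against 0.1365). Rps6kb1 itself stood at 33.3 to 45.4 CPM in the 10 WT libraries and at 15.2 to 20.8 CPM in the old KO libraries. All old KO libraries thus lay below all WT libraries, but this level alone cannot show a full deletion in each one. Some Rps6kb1 reads remained in old KO livers, reads inside the deleted part were not separable here, and the gene does not check the age labels. Summed CPM of 6 hepatocyte markers was 75510 to 142100. Old KO 6 stood apart from the other 14 libraries in skeletal muscle genes, as described beside H19. Red blood cell markers summed to 47.3–110 CPM in young WT, 79.8–165 in old WT and 107–397 in old KO, and macrophage markers to 106–244, 149–330 and 85.0–142. In whole tissue, more cells of a type and more RNA per cell cannot be told apart.

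Promoter sequence is shown for Afp because it is the only one of the 5 members in the edgeR fit that passed with age. RefSeq promoters were found for 4 of the 7 genes (Afp, Igf2, Gpc3 and Zbtb20), on build GRCm38.p6, which is not the mm9 build of the counts. The 250 bases before the annotated start site of Afp, chr5:90490464-90490713 on the plus strand, are given 5′ to 3′, with the matches to 2 motifs in capitals.
Afp: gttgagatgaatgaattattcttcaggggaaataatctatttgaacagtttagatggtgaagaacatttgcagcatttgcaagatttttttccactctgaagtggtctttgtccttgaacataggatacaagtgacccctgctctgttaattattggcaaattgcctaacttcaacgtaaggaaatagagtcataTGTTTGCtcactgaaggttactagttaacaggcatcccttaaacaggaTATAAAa
TGTTTGC is the letter pattern of a forkhead core and TATAAA that of a TATA box. The matches begin at -55 and -7 from the annotated start site, and whether either one works there was not tested. On either strand, and in windows of 300 bases, TGTTTGC occurred in 5.07% of 32851 RefSeq promoters and TATAAA in 13.6%. Neither motif had a match in the Igf2, Gpc3 and Zbtb20 windows. A match is a description of the letters and says nothing about binding in these livers.

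Afp (ENSMUSG00000054932; mm9 chromosome 5, 90919740–90937933, plus strand, 2086 exonic bases) was low in every liver and higher in the old ones. In young WT livers Afp stood at 2.66, 2.50, 1.73, 1.78 and 1.55 CPM in mice 1, 2, 3, 4 and 6. In old WT livers it stood at 2.78, 3.63, 2.39, 3.85 and 3.53 CPM in mice 1, 4, 5, 7 and 10. In old KO livers it stood at 3.26, 1.93, 3.94, 3.40 and 3.34 CPM in mice 1, 2, 4, 5 and 6. Of the 5 old WT livers 4 lay above every young liver, and so did 4 of the 5 old KO livers, with old WT 5 and old KO 2 inside the young range. Between 36 and 105 reads stood behind each value. Per kilobase of exon, albumin mRNA was 33040 times as abundant as Afp over the 15 livers.

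With age, Afp rose 1.57-fold (old WT 3.23 ± 0.621 against young WT 2.04 ± 0.501 CPM, SD, n = 5 each; log2 fold change 0.65, SE 0.208, 95% interval 0.21 to 1.09; edgeR adjusted p = 0.0396). Old KO livers held 3.17 ± 0.747 CPM, also above young WT (log2 fold change 0.62, SE 0.210, edgeR adjusted p = 0.0422). Old KO and old WT livers were not separated (log2 fold change -0.028, 95% interval -0.46 to 0.41, edgeR adjusted p = 0.983), an interval from 0.725 to 1.33 times the old WT level. The rise with age was lost when young WT 3, 4 or 6 or old WT 4, 7 or 10 was left out (log2 fold change 0.58 to 0.62, edgeR adjusted p 0.0639 to 0.0900), and the rise of old KO over young WT when young WT 3, 4 or 6 or old KO 1, 4, 5 or 6 was left out (0.53 to 0.61, edgeR adjusted p 0.0689 to 0.109). Both calls were also lost with limma voom (adjusted p = 0.0510 and 0.0679) and with no filter on low counts (edgeR adjusted p = 0.0538 and 0.0606), and that of old KO over young WT in a fit of its 10 libraries alone (edgeR adjusted p = 0.0600).

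Of the 5 members with enough reads for the fit (H19 and Zhx2 had too few), 1 passed the threshold with age, against 18.8% of the 14258 genes tested. None passed for genotype, against 0.533% of genes, and the same share stands beside each list below with no call for genotype. At an unadjusted edgeR p under 0.05 there were 0 of 5 for genotype, beside 11.6% of genes. With age there were 3 of 5 and for old KO against young WT 3 of 5, beside 33% and 36.8% of genes. Against young WT, 2 members passed in old KO, Afp and Igf2, both higher, where 23.3% of all genes passed and 12% passed as higher. For no member were the libraries of 2 groups fully apart, which was so for 11.4% of genes with age, 3.2% for genotype and 13.9% for old KO against young WT. The median log2 fold change of the 5 members was 0.65 with age, 0.029 for genotype and 0.78 for old KO against young WT, beside 0.0080, 0.00080 and -0.0055 over all tested genes. Both comparisons with young WT use the same 5 young libraries, so their values are not independent of each other.

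**Figure D1:**
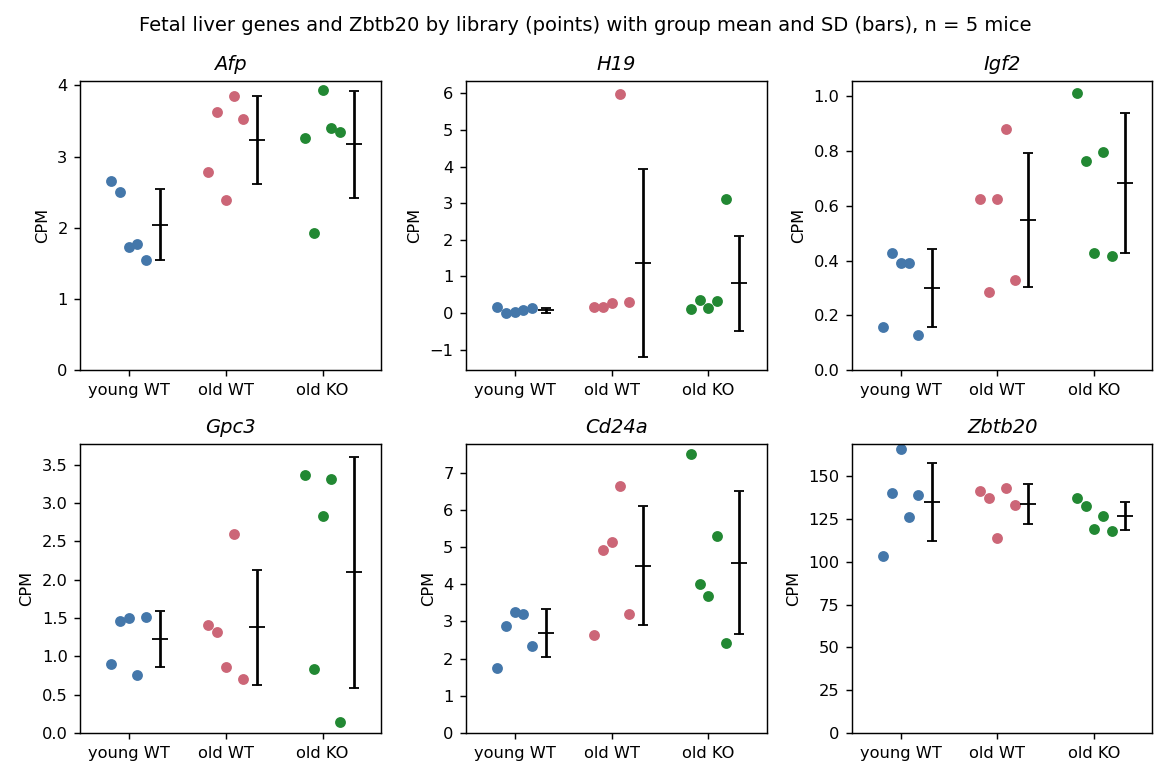
CPM (y axis, linear) of 5 fetal genes and Zbtb20 in each liver (points) of the 3 groups (x axis), with the mean and SD of each group (black bars, n = 5). Afp and Cd24a reach higher in the old groups while overlapping the young one, H19 has 1 high liver in each old group (5.97 and 3.11 CPM), and Zbtb20 stays between 103.6 and 165.8 CPM.

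Igf2 encodes insulin-like growth factor 2, the main growth factor of the fetus, and is expressed from the paternal copy next to H19 (ENSMUSG00000048583; chromosome 7, 149836673–149852721, minus strand). Reads were few, with 3 to 27 per liver. Young WT livers held 0.158, 0.427, 0.391, 0.392 and 0.129 CPM in mice 1, 2, 3, 4 and 6. Old WT livers held 0.62, 0.285, 0.626, 0.880 and 0.331 CPM in mice 1, 4, 5, 7 and 10. Old KO livers held 1.01, 0.763, 0.428, 0.797 and 0.418 CPM in mice 1, 2, 4, 5 and 6. All but 1 of the old KO livers lay above every young liver, as did 3 of the old WT livers, and the lower old livers overlapped the young ones. For old KO 4 this rested on 0.4283 CPM against 0.4274 CPM in young WT 2, from 10 and 14 reads, too few to separate them.

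Igf2 rose 2.26-fold in old KO against young WT livers (0.683 ± 0.256 against 0.300 ± 0.143 CPM, SD, n = 5; log2 fold change 1.18, SE 0.392, edgeR adjusted p = 0.0402). In old WT livers, at 0.549 ± 0.244 CPM, the log2 fold change over young WT was 0.85 with SE 0.394 and did not pass (edgeR adjusted p = 0.143). The difference between old KO and old WT was 0.32 on the log2 scale, with an interval from -0.46 to 1.10 (edgeR adjusted p = 0.809). Leaving out young WT 1 or 6, old WT 1 or old KO 1, 2 or 5 ended the call of old KO against young WT (log2 fold change 0.99 to 1.18, edgeR adjusted p 0.050 to 0.106), and so did a fit with no filter on low counts (1.17, edgeR adjusted p = 0.0607). An antisense gene, Igf2as, shares 98 exonic bases with Igf2 and had 9 reads in all. Whether the authors' counting used strand is not given in the sources used here, so reads of the shared bases cannot be assigned with certainty.

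H19 is an imprinted long non-coding RNA, expressed from the maternal copy, abundant in fetal liver and muscle and nearly silent in adult liver (ENSMUSG00000000031; chromosome 7, 149761434–149764048, minus strand). Its first exon carries the hairpin of miR-675, whose mature forms on GRCm38.p6 are given with the seed (bases 2 to 8) in capitals to show that the arms have different seeds.
mmu-miR-675-5p: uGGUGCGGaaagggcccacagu
mmu-miR-675-3p: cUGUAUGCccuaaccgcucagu
Mir675 as a gene had 0 reads in every library. It shares 84 exonic bases with H19 on the same strand, so the 0 may follow from how shared bases were counted. Poly(A) libraries do not measure mature miRNAs.

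Young WT livers held 0.158, 0, 0.0326, 0.0904 and 0.129 CPM of H19 in mice 1, 2, 3, 4 and 6, or 13 reads in all. Old WT livers held 0.156, 0.178, 0.268, 5.97 and 0.294 CPM in mice 1, 4, 5, 7 and 10, and 163 of their 190 reads were from old WT 7. Old KO livers held 0.112, 0.363, 0.129, 0.335 and 3.11 CPM in mice 1, 2, 4, 5 and 6, and 67 of their 91 reads were from old KO 6. One liver in each old group was thus 20.3-fold (old WT 7) and 8.56-fold (old KO 6) above the next highest of its group, while the other old livers held at most 0.363 CPM. Many of the low values were at or near the limit of 3 reads.

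Too few livers held enough reads for the fit, so H19 was compared by exact 2-sided permutation of log2(CPM + 0.1), a scale that understates changes of low genes. The mean of old WT exceeded that of young WT by 1.74 on that scale (exact permutation p = 0.0159, adjusted over the 3 contrasts 0.0476). The size moved with the pseudocount, from 0.95 at 0.5 to 2.52 at 0.02, both with the same p, and edgeR with no filter on low counts gave 3.96 (adjusted p = 0.0433). Without old WT 7 the difference was 0.89 (exact permutation p = 0.0317) and no longer passed after adjustment (0.0833). The adjusted p stayed under 0.05 without old WT 1 or young WT 1 and was 0.0833 to 0.0952 without any 1 of the other 8 livers. With old WT 7 left out, the remaining 4 old WT livers held 0.224 ± 0.0673 CPM (SD) against 0.0821 ± 0.0657 CPM in the 5 young ones. For old KO against young WT the difference was 1.54 (exact permutation p = 0.0556, adjusted 0.0833), or 0.87 (exact permutation p = 0.111) without old KO 6. Old KO and old WT differed by -0.20 (exact permutation p = 0.730), a difference that was 0.65 (exact permutation p = 0.619) without old WT 7. With 5 against 5 livers the smallest p of this test is 0.00794. The smallest possible p is larger when 1 liver is left out, so a call lost there cannot by itself show dependence on that liver.

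Old KO 6 was also the only liver with skeletal muscle genes at more than trace levels. Summed CPM of 5 muscle markers was 21.7 in old KO 6 and at most 0.747 in the other 14 livers. Acta1 (skeletal alpha-actin) stood at 10.2 CPM there and at no more than 0.0374 CPM elsewhere, and Ckm (muscle creatine kinase) stood at 3.02 CPM and at 0 in the other 14. Old WT 7, which held the most H19, had muscle markers at 0.477 CPM in sum, inside the range of the other livers. The part of muscle RNA in the H19 value of old KO 6 was not tested.

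**Figure D2:**
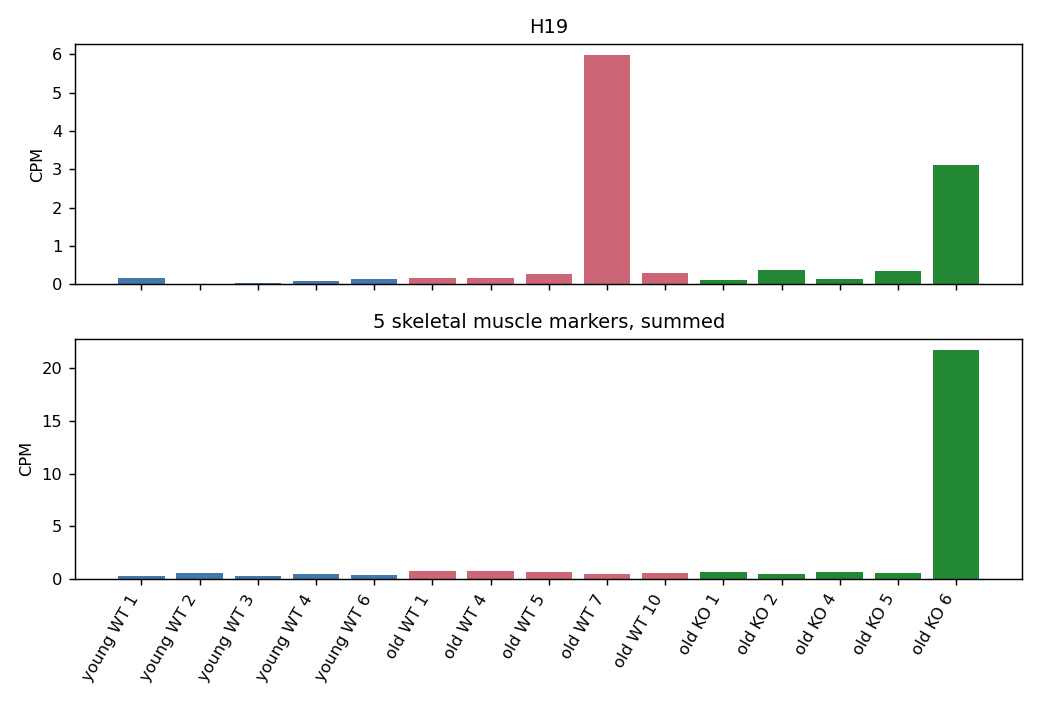
CPM of H19 (upper panel) and summed CPM of 5 skeletal muscle markers (lower panel), with 1 bar per liver and both y axes linear from 0. H19 is high in old WT 7 (5.97 CPM) and old KO 6 (3.11 CPM), and the muscle markers are high in old KO 6 alone (21.7 CPM).

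Gpc3 encodes glypican 3, a heparan sulfate proteoglycan on the cell surface that is abundant in fetal liver and in hepatocellular carcinoma (ENSMUSG00000055653; chromosome X, 49625603–49967127, minus strand). Young WT livers held 0.895, 1.47, 1.5, 0.753 and 1.51 CPM in mice 1, 2, 3, 4 and 6. Old WT livers held 1.41, 1.32, 0.865, 2.6 and 0.698 CPM in mice 1, 4, 5, 7 and 10. Old KO livers held 3.37, 0.835, 2.83, 3.31 and 0.139 CPM in mice 1, 2, 4, 5 and 6. The SD was 0.369 CPM in young WT, 0.747 in old WT and 1.5 in old KO, and the old KO livers held both the highest and the lowest values of the series, 24.2-fold apart. No comparison passed the test. The log2 fold changes were 0.17 with age (SE 0.536, edgeR adjusted p = 0.850), 0.61 (SE 0.53, edgeR adjusted p = 0.716) for genotype and 0.79 (SE 0.529, edgeR adjusted p = 0.295) for old KO against young WT. The intervals reached 1.31, 1.73 and 1.91 on the log2 scale, so rises of over 2-fold lie inside them. Without old WT 7 the change with age was -0.17.

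Across livers, Gpc3 moved with the summed markers of the mesothelium, the cell layer that covers the liver surface. Summed CPM of the mesothelial markers Msln, Upk3b and Wt1 was 1.36–3.18 in young WT, 1.54–4.84 in old WT and 0.743–7.97 in old KO livers, lowest in old KO 6, where Gpc3 was lowest too, and highest in old KO 5. After subtracting the group means of log2 CPM, Pearson's r between Gpc3 and this sum was 0.93 and Spearman's rho 0.88 over 15 livers (permutation p = 8e-05 and 0.00084, adjusted over 66 relations of members and marker lists 0.00528 and 0.0275). Without the 2 livers farthest from the median of the sum, r was 0.85. On their own, Msln had r = 0.94, Upk3b 0.91 and Wt1 0.58. Without Upk3b, a sum chosen after the data had been seen, r was 0.89 and rho 0.85 (permutation p = 0.0002 and 0.0006, not adjusted). Only 3 Gpc3 reads stood behind the value of old KO 6. Among all tested genes the 3 most like Gpc3 in this measure were Sema3c, 2610018G03Rik and Msln (r = 0.95, 0.95 and 0.94). How much of the Gpc3 RNA was of mesothelial cells was not tested.

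Cd24a encodes a small glycoprotein anchored in the membrane, a marker of fetal hepatoblasts and of bile duct and progenitor cells in the adult (ENSMUSG00000047139; chromosome 10, 43298975–43304068, plus strand). Young WT livers held 1.74, 2.87, 3.26, 3.19 and 2.33 CPM in mice 1, 2, 3, 4 and 6. Old WT livers held 2.62, 4.91, 5.13, 6.63 and 3.20 CPM in mice 1, 4, 5, 7 and 10. Old KO livers held 7.49, 4.0, 3.68, 5.28 and 2.41 CPM in mice 1, 2, 4, 5 and 6. Of the old WT livers 3 and of the old KO livers 4 lay above all young livers, and the rest lay inside the young range.

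The group means of Cd24a were 2.68 ± 0.642, 4.50 ± 1.61 and 4.57 ± 1.92 CPM (SD, n = 5 each). Neither comparison with young WT passed the threshold (with age log2 fold change 0.75, SE 0.293, edgeR adjusted p = 0.0855; in old KO 0.78, SE 0.295, edgeR adjusted p = 0.0670). In old KO the call was gained, at 0.93 with an edgeR adjusted p of 0.0267, when old KO 6 was left out, the old KO liver with the lowest Cd24a. Old KO and old WT differed by 0.029 on the log2 scale (95% interval -0.58 to 0.64, edgeR adjusted p = 0.989).

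The summed bile duct and progenitor markers, a sum of which Spp1 held 78.3%, moved with Cd24a from liver to liver. Summed CPM of the 7 markers was 30.8–52.2 in young WT, 42.4–118 in old WT and 40.8–113 in old KO livers. After removal of group means Cd24a had r = 0.85 and rho = 0.84 with this sum (permutation p = 0.0009 and 0.00125, adjusted 0.0260 and 0.0275), and r = 0.81 without the 2 extreme livers. Without Spp1, a sum chosen after the data had been seen, r was 0.70 and rho 0.51 (permutation p = 0.0150 and 0.0853, not adjusted), and the 6 tested markers on their own had r of 0.52 (Sox9) to 0.87 (Krt19). The mesenchymal and stellate sum, of which Dcn (decorin) held 75.4%, had r = 0.82 with Cd24a and rho = 0.87 (permutation p = 0.00118 and 0.00059, adjusted 0.0260 and 0.0275) and r = 0.76 without the 2 extreme livers. Without Dcn r was 0.77 and rho 0.69 (permutation p = 0.00491 and 0.0146, not adjusted), and single markers had r of 0.26 (Lrat) to 0.83 (Lum). Of the 6 bile duct markers tested 2 rose with age, beside 9.92% of all genes, and the list as such was not tested. They were Prom1 (prominin 1, log2 fold change 2.79, SE 0.482, edgeR adjusted p = 0.00156) and Spp1 (osteopontin, 0.98, SE 0.286, edgeR adjusted p = 0.0262). Prom1 passed in each of 15 fits without 1 library, while Spp1 was lost without young WT 1 or 2 or old WT 5 or 7 (0.79 to 0.95, edgeR adjusted p 0.0525 to 0.0772). Epcam, Krt19, Krt7 and Sox9 had log2 fold changes of 0.67, 0.23, 0.54 and 0.44 and did not pass. None of the 6 passed for genotype. The genes most like Cd24a were Bicc1, Csrp1 and Prss23 (r = 0.93, 0.91 and 0.91).

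Igf2 in turn had r = 0.74 and rho = 0.71 with the mesenchymal sum (permutation p = 0.00186 and 0.00365, adjusted 0.0307 and 0.0602), and r = 0.69 without the 2 extreme livers. With Dcn taken out of the sum r was 0.60 and rho 0.50 (permutation p = 0.0242 and 0.0680, not adjusted), and r was 0.17 with Lrat and 0.73 with Dcn alone. That sum was 229–298 CPM in young WT, 193–325 in old WT and 190–366 in old KO livers. Of its 7 genes 1 rose with age, beside 9.92% of all genes. It was Col3a1 (type III collagen, log2 fold change 1.01, SE 0.334, edgeR adjusted p = 0.0449). The call was lost without young WT 1, 2, 3 or 4, old WT 1, 4, 5 or 7 or old KO 4 or 5 (0.82 to 1.08, edgeR adjusted p 0.0534 to 0.121). Afp, in contrast to these members, had no relation to any of the 11 marker sums that passed after adjustment. Its r with the hepatocyte sum was 0.34 (permutation p = 0.255, adjusted 0.580). Alb made up most of that sum, at 59990 to 102400 CPM in young WT livers, where the sum was 75510 to 125600 CPM. The nearest genes of Afp were Zfp39, Dhodh and 6330416G13Rik (r = 0.90, 0.87 and 0.85), and those of Igf2 were C630043F03Rik, Tshz3 and Spsb1 (r = 0.91, 0.90 and 0.88). Such neighbours are the highest of 14257 genes over 15 livers and are given as a description.

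**Figure D3:**
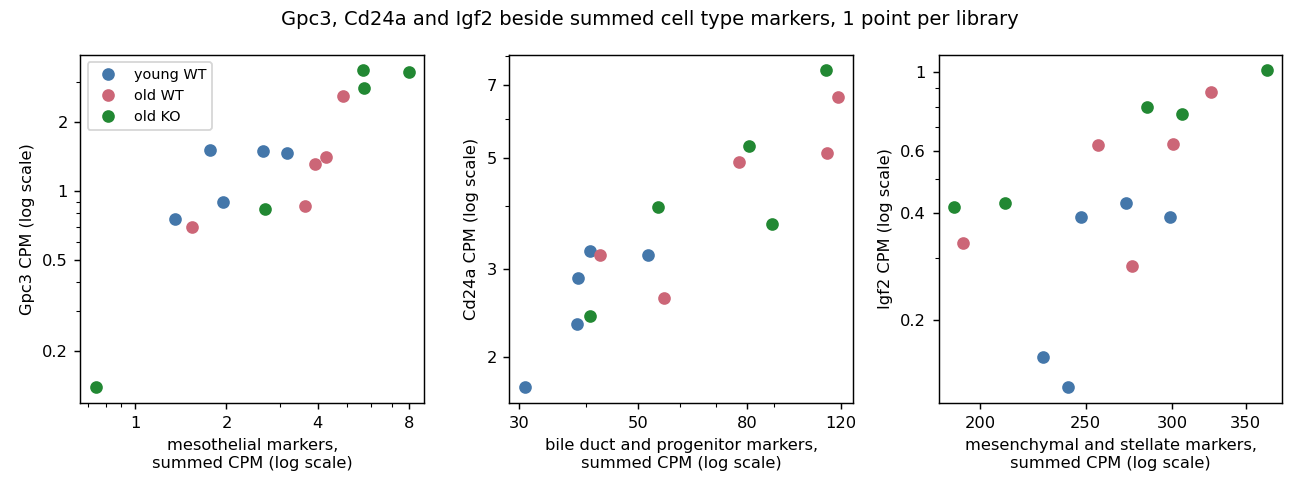
CPM of Gpc3, Cd24a and Igf2 (y axes, log scale) against the summed CPM of mesothelial, of bile duct and progenitor, and of mesenchymal and stellate markers (x axes, log scale), with 1 point per liver coloured by group. Within the groups the member rises with the marker sum, with r of 0.93, 0.85 and 0.74 after removal of group means.

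Whether the fetal genes moved together between livers was not tested, and their correlations differed by pair. Old WT 7 held the highest value of its group for every fetal gene. Old KO 6 held the lowest of its group for Igf2, Gpc3 and Cd24a, but the highest for H19. With group means removed, Igf2 and Cd24a had r = 0.64 and rho = 0.72 over 15 livers, and Gpc3 and Cd24a r = 0.63 and rho = 0.59. Igf2 and Gpc3 had r = 0.38 and rho = 0.425. Afp had r between -0.18 and 0.21 with the other 4 fetal genes. H19 and Igf2, neighbours that share an imprinting control region, had r = -0.014 and rho = -0.14. Few reads stood behind both genes in most livers, so an r near 0 for them says little.

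**Figure D4:**
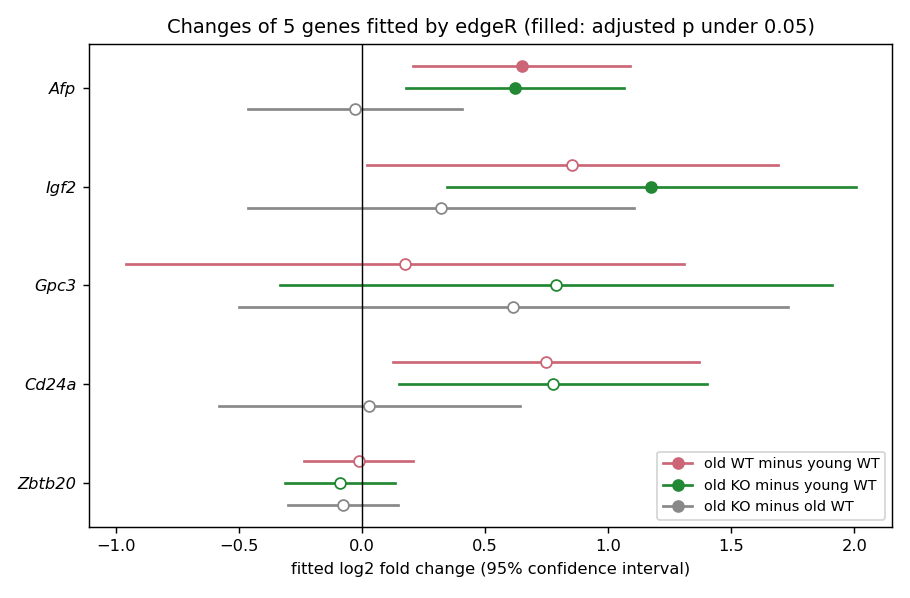
Fitted log2 fold changes (x axis) of the 5 testable members with 95% confidence intervals in 3 comparisons (colours), filled where the edgeR adjusted p is under 0.05. Afp is filled in both comparisons with young WT and Igf2 in old KO against young WT, and every interval of old KO against old WT includes 0.

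Zbtb20, the repressor of Afp, was the most abundant member and the steadiest (ENSMUSG00000022708; chromosome 16, 42875994–43642715, plus strand, 30730 exonic bases). Young WT livers held 103.6, 139.9, 165.8, 126.3 and 138.8 CPM in mice 1, 2, 3, 4 and 6. Old WT livers held 141.1, 137.1, 113.9, 142.9 and 133.0 CPM in mice 1, 4, 5, 7 and 10. Old KO livers held 137.2, 132.7, 119.1, 126.9 and 117.9 CPM in mice 1, 2, 4, 5 and 6. All old livers lay inside the young range, and 2540 to 5085 reads stood behind each value. The log2 fold change was -0.014 with age (SE 0.105, 95% interval -0.24 to 0.21, edgeR adjusted p = 0.946), -0.076 for genotype (95% interval -0.30 to 0.15, edgeR adjusted p = 0.846) and -0.089 for old KO against young WT (95% interval -0.31 to 0.13, edgeR adjusted p = 0.572). At their lower ends the intervals stand at 0.849 times the young level with age and at 0.805 times it in old KO livers.

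Between livers Zbtb20 showed no relation to the fetal genes that passed after adjustment over the 5 relations. With Afp r was -0.23 and rho -0.28 (permutation p = 0.454 and 0.363), and r was 0.13 without the 2 livers with extreme Zbtb20. With H19 r was -0.14, with Igf2 0.42, with Gpc3 0.37 and with Cd24a 0.41 (permutation p = 0.534, 0.191, 0.0436 and 0.0967, adjusted 0.534, 0.318, 0.218 and 0.242). A second identifier of Zbtb20 that lies inside the first had 0 reads, and 3079 of its exonic bases are shared with the first. Zfp948, Eda and Nlrp3 were the genes most like Zbtb20 (r = 0.92, 0.88 and 0.87).

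Zhx2 (ENSMUSG00000071757; chromosome 15, 57526220–57671388, plus strand, 4435 exonic bases) was listed at 0 reads in all 15 livers. Only if its reads were assigned to this identifier does 0 allow up to 0.0788 to 0.138 CPM in a single library. No other gene of the GENCODE M1 annotation shares its exons. Among 6057 protein-coding genes with at least as many exonic bases, 131 (2.16%) were listed at 0 throughout. The related Zhx1 and Zhx3, which pair with Zhx2, were well covered at 54.8 ± 7.61 and 102 ± 18.3 CPM in young WT (SD, n = 5), with log2 fold changes of 0.052 and -0.26 with age and 0.094 and 0.047 for genotype that did not pass the test. Whether Zhx2 mRNA was absent or its reads were not assigned to this identifier cannot be told from the table, so no level and no comparison of Zhx2 is given.

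Genes that other work has placed under Zhx2 were read from a list of 6, of which 5 could be tested. With age 1 fell, beside 8.91% of all genes. It was the major urinary protein gene Mup3 (1699 ± 486 to 360 ± 207 CPM, log2 fold change -2.24, SE 0.442, edgeR adjusted p = 0.00348). Mup3 fell in old KO against young WT as well (-1.29, SE 0.429, edgeR adjusted p = 0.0400), where 11.3% of all genes fell. There the call was lost without young WT 1, 2, 3 or 4 or old KO 1, 2, 4 or 6 (-1.35 to -1.05, edgeR adjusted p 0.0547 to 0.0863). Lpl, Elovl3, Mup20 and Cyp2a4 had log2 fold changes of 0.84, -0.59, -1.0 and 0.95 with age and did not pass, and none passed for genotype. Mup and Cyp2a genes have near-identical copies, so their counts are uncertain.

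Factors that activate the Afp promoter were all expressed. Of 10 tested, 1 rose with age, a share like the 9.92% of all genes. It was Cebpa (C/EBP alpha, log2 fold change 0.33, SE 0.109, edgeR adjusted p = 0.0453), and its call was lost without any 1 of the 5 young WT livers or without old WT 1, 4 or 5 (0.27 to 0.34, edgeR adjusted p 0.0653 to 0.112) and with no filter on low counts (0.33, edgeR adjusted p = 0.0687). Hnf4a, a nuclear receptor of hepatocytes, had a change of -0.086 on the log2 scale with age and did not pass. Against young WT, Cebpa (0.41, SE 0.109, edgeR adjusted p = 0.0139) and Foxa3 (a forkhead factor, 0.55, SE 0.188, edgeR adjusted p = 0.0427) rose in old KO, where 12% of all genes rose. Foxa3 was lost without young WT 1, 2, 3 or 6, old WT 4 or 5 or old KO 2, 4, 5 or 6 (0.32 to 0.59, edgeR adjusted p 0.0505 to 0.126), with limma voom (0.49, adjusted p = 0.0699) and in the 10 libraries alone (0.56, edgeR adjusted p = 0.0697), and none of the 10 passed for genotype.

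The albumin family, to which Afp belongs, lies next to it or near it on chromosome 5 and holds Alb, Afm and Gc beside it. Of these 3 genes 1 rose with age, beside 9.92% of all genes. It was Afm (afamin, a carrier of vitamin E; 194 ± 19.7 to 250.5 ± 23.1 CPM, SD, log2 fold change 0.37, SE 0.0902, edgeR adjusted p = 0.0108). Its old WT livers all lay above the young ones, and with age the groups were fully apart for 11.4% of all genes. In old KO against young WT, Afm (0.66, SE 0.0905, edgeR adjusted p = 0.000227) and Gc (the vitamin D binding protein, 0.38, SE 0.0953, edgeR adjusted p = 0.0101) rose, beside 12% of all genes. Alb did not pass with age (-0.078, SE 0.175, edgeR adjusted p = 0.789) and none of the 3 passed for genotype, beside 0.533% of all genes.

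Other genes of the fetal program were mostly too low to test, or did not pass. Of 16 further fetal genes 8 were tested, and with age 1 rose and 1 fell, against 9.92% and 8.91% of all genes. Pkm, listed as Pkm2, encodes both M isoforms of pyruvate kinase, which the counts do not separate, and rose (12.9 ± 2.25 to 18.9 ± 1.26 CPM, log2 fold change 0.55, SE 0.109, edgeR adjusted p = 0.00348). Aldoa, the aldolase of muscle and fetal liver, fell by 0.37 (SE 0.106, edgeR adjusted p = 0.0245), a call lost without young WT 1 or 2 or old WT 1 or 4 (-0.34 to -0.30, edgeR adjusted p 0.0602 to 0.0718). Lin28b was listed at 0 and Lin28a, Sall4, Igf2bp1 and Dlk1 had 1 to 13 reads over all livers. None of the 8 passed for genotype or for old KO against young WT, beside 0.533% and 23.3% of all genes.

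H19 and Igf2 are imprinted genes, and of 20 others listed 19 were found and 15 tested. With age 4 fell and 1 rose, beside 8.91% and 9.92% of all genes, and the class as such was not tested. Meg3 and Rian, maternally expressed non-coding RNAs of 1 cluster, fell from 1.89 ± 0.831 to 0.314 ± 0.143 CPM and from 0.892 ± 0.424 to 0.188 ± 0.104 CPM (SD, n = 5). No old WT liver reached the lowest young liver for either gene, and with age the groups were fully apart for 11.4% of all genes. The log2 fold changes of Meg3 and Rian were -2.58 (SE 0.40, edgeR adjusted p = 0.000882) and -2.22 (SE 0.399, edgeR adjusted p = 0.00196). Peg3, a paternally expressed zinc finger gene, fell from 63.0–106.6 CPM in young to 18.2–45.4 CPM in old WT livers (-1.52, SE 0.368, edgeR adjusted p = 0.0102).

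Nnat (neuronatin) fell by 0.84 on the log2 scale (SE 0.231, edgeR adjusted p = 0.0198) and Ndn (necdin) rose by 1.81 (SE 0.512, edgeR adjusted p = 0.0230). Nnat was lost without young WT 1 or 2 or old WT 4 (-0.75 to -0.74, edgeR adjusted p 0.0542 to 0.0580) and Ndn without young WT 1 or 4 or old WT 1 or 5 (1.63 to 1.70, edgeR adjusted p 0.0535 to 0.0640). In old KO against young WT 4 fell and 1 rose, beside 11.3% and 12% of all genes. The 4 that fell were Meg3 (-2.15), Rian (-1.87), Peg3 (-1.68) and Nnat (-1.06), with edgeR adjusted p of 0.00156, 0.00377, 0.00474 and 0.00493. Cdkn1c, an inhibitor of the cell cycle expressed from the maternal copy, rose there by 0.73 (SE 0.186, edgeR adjusted p = 0.0107). None of the 15 passed for genotype. The median log2 fold change of the 15 was -0.17 with age, against 0.0080 over all genes.

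**Figure D5:**
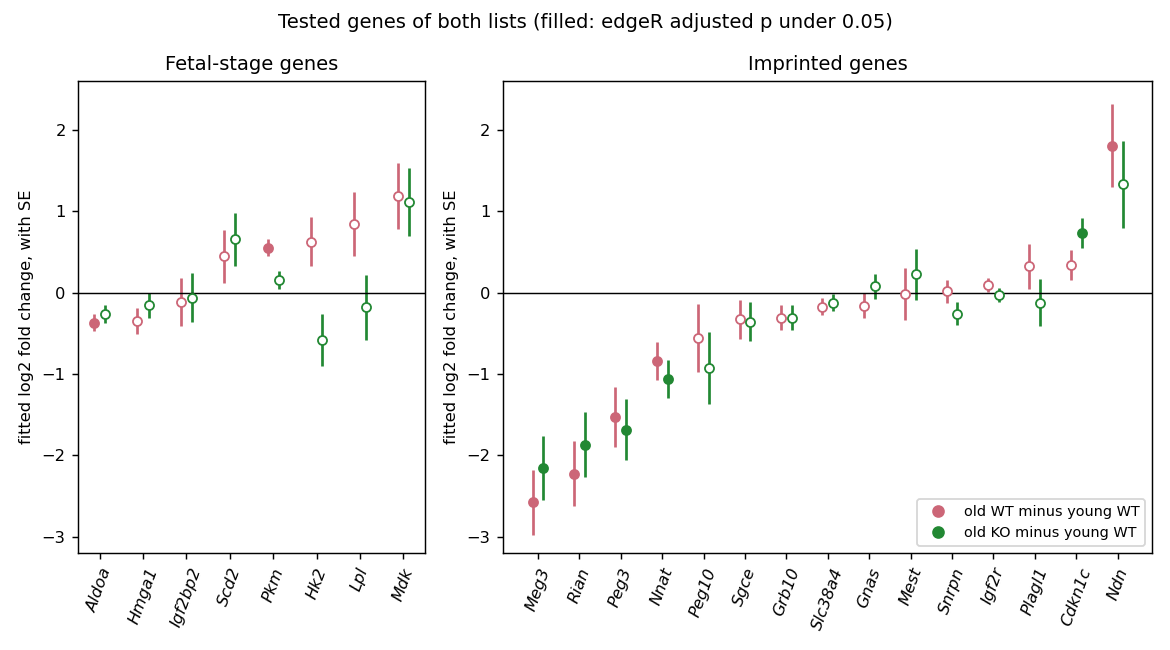
Fitted log2 fold changes with SE (y axis) of the tested genes of both lists (x axis) in old WT and old KO against young WT (colours), filled where the edgeR adjusted p is under 0.05. Meg3, Rian, Peg3 and Nnat lie below 0 in both comparisons, and most fetal-stage genes are not filled.

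The receptors of Igf2 and the relatives of Gpc3 were short lists, and neither list was tested as such. Of 4 genes tested around Igf2 (Igf2r, Igf1r, Insr and Igf1) none passed with age or genotype, beside 18.8% and 0.533% of all genes. Igf1r fell by 0.92 in old KO against young WT (SE 0.289, edgeR adjusted p = 0.0316), where 11.3% of all genes fell. That call was lost without young WT 2 or 3 or old KO 2, 4, 5 or 6 (-0.91 to -0.80, edgeR adjusted p 0.0556 to 0.0760). Of 5 other glypicans 3 were tested and none passed in any comparison. The shares of all genes were 18.8% with age, 0.533% for genotype and 23.3% for old KO against young WT.

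Compared per kilobase of exon over the 15 livers, the members ranked Zbtb20 (4.29 CPM per kb), Cd24a (2.16), Afp (1.35), Gpc3 (0.582), H19 (0.318) and Igf2 (0.0930). Within the young WT group Cd24a (0.958 to 1.80 CPM per kb) and Afp (0.744 to 1.28) overlapped, as did H19 (0 to 0.0666) and Igf2 (0.0236 to 0.0778), while Zbtb20 (3.37 to 5.39) lay above all of them and Gpc3 (0.280 to 0.561) lay below Afp and above H19 and Igf2. The old groups kept Zbtb20 highest in group mean, at 4.35 and 4.13 CPM per kb, with Cd24a next at 2.48 and 2.52.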

How the data were processed

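Whole liver RNA of 15 mice was sequenced by the authors from stranded poly(A) libraries with single-end reads, which were demultiplexed with CASAVA, mapped to mm9 with TopHat2 2.0.11 (version per the labels) and assigned to genes by HTSeq. What they deposited are raw counts of each mouse without normalization. The annotation and strand setting of the counting are not given in the sources used here. The study named DESeq2 without a design formula, so edgeR was the main test and DESeq2 an alternative.

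All 37991 identifiers were read, of which 37205 had a position in GENCODE M1 (NCBIM37, the mm9 assembly). After TMM scaling and the filterByExpr filter (by group), counts were fitted with glmQLFit in edgeR 4.0.16 (R 4.3.3) over all 15 libraries. The 3 contrasts were tested with glmQLFTest on 14258 genes, with Benjamini-Hochberg adjustment and a threshold of 0.05. The biological coefficient of variation was 0.189. CPM is counts per 1000000 of the TMM-scaled library, and log2 CPM used a prior count of 2. SE are of fitted log2 fold changes and SD are over the 5 mice. P-values measure the spread between these mice. H19 was tested by exact permutation, and correlations by 100000 permutations within groups (SciPy 1.17.1). The model was tested on simulated data.

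Replicate pairs of a group differed by more than sampling noise (chi-square per degree of freedom 19.7 to 129 over 30 pairs), so no library was counted as a copy of another. Of 128 entries in 19 gene lists 124 matched by symbol, 3 by synonym and 1 did not. The members and lists were chosen with earlier results of these data known, and the lists were written from general knowledge. Text names the 7 members, list genes past the threshold (up to 4 per list and contrast), list genes a sentence needs and the 3 genes most like each tested member. Alternatives were DESeq2 1.42.0, limma 3.58.1 with voom, RLE and upper quartile scaling, no filter, at least 10 counts in every library, the 10 libraries of a contrast, a replicate block, exact permutation and leaving out each library. For list genes they were applied after the data had been seen. Some list genes are not reported here by name.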

Additional observations from a re-analysis of the deposited data

Results flagged for a closer look

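H19 in old WT 7 stood at 5.97 CPM, while the other 4 old WT livers held 0.156 to 0.294 CPM, and this liver was picked out because its gap to the next highest liver takes up nearly the whole range of its group. H19 in old KO 6 stood at 3.11 CPM for the same reason, beside 0.112 to 0.363 CPM in the other 4 old KO livers. Chance alone marks about 1 in 20 groups by this rule, and 18 groups (6 genes in 3 groups) were looked at. Skeletal muscle markers summed to 21.7 CPM in old KO 6 and to 0.477 CPM in old WT 7, against at most 0.747 CPM in the other libraries.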

How the results depend on the processing

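H19, Igf2 and Gpc3 each fell to 3 reads or fewer in a library, and Igf2 and Gpc3 had no value where at least 10 counts were asked of every library. The replicate numbers did not pair the livers (deviations from group means of same-numbered livers correlated at -0.153 to 0.077 over 9 pairs, others at -0.267 to 0.355), and 0 of the 12 livers with a same-numbered partner correlated best with it. The rise of Afp with age was 0.58 to 0.76 over the 15 fits without 1 library, and did not pass with limma voom (0.63, adjusted p = 0.0510), with no filter (0.65, adjusted p = 0.0538) or with the replicate block (0.34, adjusted p = 0.542). The rise of Afp in old KO over young WT was 0.53 to 0.76 without 1 library, and did not pass with limma voom (0.58), with no filter (0.62), in the 10 libraries of the contrast (0.62) or with the block (0.56, adjusted p = 0.181). Igf2 in old KO against young WT was 0.99 to 1.33 without 1 library, and did not pass with no filter (1.17) or with the block (1.20, adjusted p = 0.0843). Cd24a in old KO against young WT passed with DESeq2 (0.77, adjusted p = 0.0375) and ranged over 0.52 to 0.93 without 1 library. The block turned the sign of uncalled changes of Gpc3 (-0.52) and Zbtb20 (0.12) with age, of Afp for genotype (0.21) and of Zbtb20 in old KO against young WT (0.030), and changed no other call of a member. Without 1 library, uncalled changes that crossed 0 were Gpc3 with age (-0.17 to 0.34), Zbtb20 with age (-0.096 to 0.081), and for genotype Afp (-0.12 to 0.10), Cd24a (-0.22 to 0.20) and H19 (-0.87 to 0.65). H19 in old KO against young WT had an exact permutation p of 0.0476 with a pseudocount of 0.02 (2.28), or 0.0714 adjusted over the 3 contrasts, and ranged over 0.87 to 1.85 without 1 library. Genes called with age were 2685, 899 with the block and 1748 to 3284 without 1 library. Genes called for genotype were 76, 309 with DESeq2, 23 with limma voom, 6 with the block and 9 to 108 without 1 library. The causes of these differences were not tested. Of 50 list gene results none reversed in any alternative, and 23 passed in each fit without 1 library. The block ended 29 of these 50 calls, Pkm (adjusted p = 0.0596), Afm (0.0546), Peg3 (0.0709), Cd68 (0.286) and Clec4f (0.281) among them, limma voom 9, the 10 libraries of a contrast 5 of 49, and no filter and upper quartile scaling 2 each.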

Other observations

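Among the cell type lists, macrophage markers held the only list genes that passed for genotype. Of 5 tested 2 fell, beside 0.421% of all genes, and the list as such was not tested. Cd68, a lysosomal protein of macrophages, fell by 1.18 on the log2 scale in old KO against old WT livers (SE 0.238, edgeR adjusted p = 0.0384) and Clec4f, a lectin of Kupffer cells, fell by 1.27 (SE 0.238, edgeR adjusted p = 0.0292). Cd68 was lost without young WT 4, old WT 1, 4, 7 or 10 or old KO 2, 4, 5 or 6 (-1.23 to -1.03, edgeR adjusted p 0.0593 to 0.110), and Clec4f without old WT 1, 4 or 10 or old KO 2, 4, 5 or 6 (-1.32 to -1.08, edgeR adjusted p 0.0514 to 0.0915). With limma voom neither passed (adjusted p = 0.0522 and 0.0511). In old KO against young WT, 5 of 6 tested red blood cell markers rose, beside 12% of all genes. The 4 globin genes Hba-a1, Hba-a2, Hbb-b1 and Hbb-b2 passed in each of 15 fits without 1 library, while Alas2 (0.90) was lost without young WT 1, 2, 3 or 6 or old KO 2, 5 or 6 (edgeR adjusted p 0.0537 to 0.104), with limma voom (adjusted p = 0.0655) and in the 10 libraries alone (edgeR adjusted p = 0.0616). The globin genes have near-identical copies, so how their reads were split is uncertain. Lyve1, a receptor of the sinusoidal endothelium, fell with age by 0.94 (SE 0.249, edgeR adjusted p = 0.0167) and did so in each of the 15 fits.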
